A study of Mus musculus with 4 samples.

Results

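CTCF peaks at the promoters of long noncoding RNA (lncRNA) genes were examined in mouse hippocampus. A peak belonged to this class when its summit lay on an autosome, within 1 kb of the transcription start site (TSS) of a lncRNA gene and over 1 kb from every protein-coding TSS. The lncRNA gene types were lincRNA, antisense, processed_transcript, bidirectional_promoter_lncRNA and sense_intronic of the GENCODE M21 basic annotation, on mm10. No measured value entered this rule other than the call of the peak itself. It gave 1303 of 88071 autosomal peaks, 1.48% (95% exact binomial interval 1.40 to 1.56), out of 90278 peaks in all. A further 884 of the 2187 summits near a lncRNA TSS were left out because a protein-coding TSS also lay within 1 kb.

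The peaks came from chromatin immunoprecipitation with an antibody to CTCF, followed by sequencing (ChIP-seq). The tissue was hippocampus (labelled as a layer of it) of male B6CASTF1/J mice, bred by crossing the C57BL/6J and CAST/EiJ strains, as adults of 2 months. There were 4 libraries in 2 biological replicates, each a pool of 7 biosamples with 2 technical libraries. Both pools carry the same donor entry, so whether they came from separate animals is not stated, and the spread between replicates may be technical. All samples had the same strain, sex, age and tissue, with no treated or untreated group, and an input control was not used here. Binding data hold no expression, so the tissue could not be checked against marker genes. The tissue mixes cell types, and a site bound in few cells cannot be told apart from one bound weakly in many. The peak lists give no read depth, and intervals cover the counting of peaks or genes only.

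CTCF is a zinc-finger protein that binds a long, well-conserved DNA motif and, with cohesin, anchors chromatin loops and insulates domains. It also binds near the start sites of many genes. Long noncoding RNAs are transcripts without a protein product. Some host small nucleolar RNAs or microRNAs in their introns, others run antisense to a coding gene, and at imprinted loci several are expressed from 1 parental chromosome.

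The sequences below show what the recognition site looked like at lncRNA promoters. Capitals mark the 12 bases that best match the core of the CTCF consensus within 50 bp of the summit, and 15 bases of flank stand on either side. Each is read 5′ to 3′ on the strand of the match from the mm10 reference, so alleles of the CAST/EiJ parent are not shown. The 7 sites here belong to the strongest members.
4833412C05Rik: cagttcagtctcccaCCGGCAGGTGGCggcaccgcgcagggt
Gm26841: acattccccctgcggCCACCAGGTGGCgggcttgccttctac
Gm831: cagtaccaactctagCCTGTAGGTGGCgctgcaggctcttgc
Gm16133: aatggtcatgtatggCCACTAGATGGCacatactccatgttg
Gm12052: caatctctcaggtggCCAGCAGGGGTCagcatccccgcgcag
Gm26797: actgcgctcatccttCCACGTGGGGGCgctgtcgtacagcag
4930478P22Rik: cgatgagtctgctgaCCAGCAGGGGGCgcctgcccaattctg
Positions in the core count from 1 at its 5′ end, and a substitution names the consensus base, the position and the base found. Gm26841, Gm16133 and 4930478P22Rik matched without a mismatch. The single substitution was A3G at 4833412C05Rik, A3T at Gm831 and G11T at Gm12052, and Gm26797 had 2 substitutions, Y5G (Y, a pyrimidine) and A6T.

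Sites at lncRNAs that host small RNAs are shown in the same way, to set well-known genes beside the strongest sites.
Mir17hg: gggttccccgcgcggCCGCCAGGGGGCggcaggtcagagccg
Snhg8: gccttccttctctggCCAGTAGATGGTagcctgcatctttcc
Snhg12: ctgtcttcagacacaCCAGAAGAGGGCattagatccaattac
Snhg15: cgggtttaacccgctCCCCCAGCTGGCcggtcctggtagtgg
Mir17hg, the host of the miR-17-92 microRNA cluster, differed from the consensus by A3G alone. Snhg8 differed by C12T and Snhg12 by Y5A. Snhg15 had 2 substitutions, A3C and R8C (R, a purine), and therefore did not count as a match below. Of the 33 member peaks of the named genes listed below, only 4 had a match, so the matched sites printed here are not typical. The sites of Mir17hg, Snhg8 and Snhg12 belong to summits at -605, -913 and -630 bp from the TSS. Another summit of Snhg8, at 209 bp, had 4 mismatches.

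At the promoters of Gm41414 and Mir100hg the summit and the motif lay just before the TSS. Their sequence from 150 bases upstream of the TSS, on the strand of the lncRNA, is given with the motif in capitals. Both genes were chosen for display after their values were seen.
Gm41414: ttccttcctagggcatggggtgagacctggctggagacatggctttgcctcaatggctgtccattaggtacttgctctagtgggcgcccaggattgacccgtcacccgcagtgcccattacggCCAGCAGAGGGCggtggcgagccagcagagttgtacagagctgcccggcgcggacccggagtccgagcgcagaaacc
Mir100hg: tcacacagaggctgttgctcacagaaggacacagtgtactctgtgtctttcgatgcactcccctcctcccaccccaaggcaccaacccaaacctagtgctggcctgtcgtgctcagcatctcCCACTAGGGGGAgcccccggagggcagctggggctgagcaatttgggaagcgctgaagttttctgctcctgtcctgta
The Gm41414 window is chr16:5306651-5306850 and its TSS is at 5306801, with the motif at 5306774 to 5306785. The Mir100hg window is chr9:41474679-41474878 with the TSS at 41474829. Its motif starts at the summit, 41474801, and carries the single substitution C12A.

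The members were spread over all types of lncRNA gene. Of the 1303 peaks, 710 (54.5%) were nearest to a lincRNA TSS, 420 to an antisense, 133 to a processed_transcript, 32 to a sense_intronic and 8 to a bidirectional_promoter_lncRNA TSS. The nearest lncRNA TSSs belonged to 1137 genes. Every autosome held members, from 1.18% of the peaks of chromosome 2 to 2.17% of those of chromosome 13. Of the 1303 members, 100 shared their coordinates with another member that had a different summit, and 384 had a width of exactly 440 bp, so width was not used as a measure. At the edge of the rule, 120 members with a summit 900 to 1000 bp from the lncRNA TSS had a median signal of 197, and 103 peaks just beyond, up to 1100 bp, had 162. In the 100 bp on either side of the limit to protein-coding TSSs, 26 members just over 1 kb away had a median of 140. The 24 excluded peaks just within 1 kb had 206.

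CTCF occupied a minority of lncRNA promoters. A member summit lay within 1 kb of a TSS for 1172 of 9392 autosomal lncRNA genes, 12.5% (11.8 to 13.2). The rule leaves out summits that also lie near a coding TSS. With any summit within 1 kb counted, 1874 lncRNA genes (19.95%) and 8083 of 20807 protein-coding genes (38.8%) were occupied. A summit near any TSS of a gene counted, so a gene with more annotated TSSs had more windows. The number of TSSs per gene was not made equal between the classes. Among the 7858 lncRNA genes with a TSS over 1 kb from every coding TSS, 1108 were occupied, 14.1% (13.3 to 14.9). By type, processed_transcript genes were occupied at 14.6% (12.2 to 17.3), antisense at 12.9% and lincRNA at 12.5%, with overlapping intervals. For bidirectional_promoter_lncRNA genes, which start beside a coding gene by definition, 6 of 190 were occupied (3.16%). With any summit counted the types stood further apart, at 53.2% for bidirectional_promoter_lncRNA, 29.6% for processed_transcript, 24.5% for antisense and 15.3% for lincRNA genes.

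Most occupied lncRNA genes had a single summit. There were 1013 with 1, 148 with 2, 9 with 3 and 2 with 4. Gm26901 and Gm16499 were the genes with 4, and A330023F24Rik was the first of those with 3.

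At Gm26901, a lincRNA on chromosome 1, 3 of the 4 summits carried a match, and their sites are printed because a pair of them is almost the same sequence.
Gm26901 site 1: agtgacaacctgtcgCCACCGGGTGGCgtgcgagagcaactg
Gm26901 site 2: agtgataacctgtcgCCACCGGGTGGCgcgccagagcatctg
Gm26901 site 3: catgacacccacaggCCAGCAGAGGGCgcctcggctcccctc
Sites 1 and 2 start 380 bp apart, at 7397052 and 7397432, and are identical at 38 of the 42 bases printed, each with the substitution A6G. Site 3 starts at 7398385 and is identical to site 1 at 21 bases. The peak at site 1 had a signal of 531 (263 in replicate 1 and 270 in replicate 2). The peak at site 2 reached 91.2 (44.9 and 58.6), lower in both replicates despite the same 12-base core. The peak at site 3 had the highest signal, 604 (292 and 314).

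At Gm16499, antisense to Tril, which encodes a protein that interacts with Toll-like receptors, none of the 4 summits had a match with at most 1 mismatch. Their signals were 485, 224, 122 and 18.1, and the first and last of these share 1 peak and a replicate 1 signal of 261. At A330023F24Rik, which hosts microRNAs of the miR-29 family, 2 summits lay near 1 TSS, at -53 and 151 bp, with signals of 739 and 271. The other, with 359, lay at -490 bp from another TSS of the gene, and none of the 3 had a match.

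Signals at lncRNA promoters were higher than at protein-coding promoters. The signal is the score that the authors deposited for each peak, on an unstated scale, and here it describes and ranks peaks within 1 list. Members had a median of 200.0 (95% order-statistic interval 189 to 218) with quartiles of 94.3 and 574. The 9440 protein-coding promoter peaks had 159 (154 to 164) and the 75771 distal peaks, over 1 kb from any TSS, had 165 (163 to 167). Over all peaks of a class, members were also the highest in each replicate. In replicate 1 the medians were 104 for members, 79.6 for coding promoters and 82.1 for distal peaks, and in replicate 2 they were 108, 84.8 and 87.8. The strongest 10% of all autosomal peaks included 186 members, 14.3% (12.4 to 16.3), against 8.50% of coding promoter peaks, a difference of 5.78 percentage points (3.89 to 7.86). Against distal peaks the difference was 4.12 points (2.31 to 6.14).

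The strongest member stood at 4833412C05Rik, a lincRNA (chr7:67803433-67803977, summit at -237 bp from the TSS), with a signal of 960 (473 in replicate 1 and 488 in replicate 2). Gm26841 followed at 916 (446 and 473), inside the gene H13, where the imprinted retrogene Mcts2 had the nearest coding TSS at 9905 bp. Epb41l4aos, a lincRNA with its summit 212134 bp from the TSS of Epb41l4a, reached 915 (431 and 489). Gm31812, a lincRNA, had 912 (447 and 471). These 4 sites lay between 431 and 473 in replicate 1 and between 470.9 and 489 in replicate 2. Next came Gm41414 with 895 (434 and 465), Gm831 with 889 (455 and 438) and Gm16133 with 886 (426 and 464). Gm16133 is antisense to Fancc, a gene of the Fanconi anaemia DNA repair pathway. Gm12052 with 882 (424 and 461), Gm26797 with 879 (428 and 451) and 4930478P22Rik with 874 (413 and 462) completed the 10 strongest. Replicate 2 had the higher value at 9 of these 10, all but Gm831. Over all autosomal peaks the median log2 ratio of replicate 2 to replicate 1 was 0.091. Of the 10 sites, 7 had a match with at most 1 mismatch. Epb41l4aos and Gm26797 had 2 mismatches and Gm31812 had 3.

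CTCF motifs were more frequent at lncRNA promoters than at protein-coding promoters and less frequent than at distal sites. The search took the 12-base core on either strand, wholly inside the window from 50 bp before to 50 bp after the summit, with at most 1 mismatch. It was found at 550 members, 42.2% (39.5 to 44.9), against 50.1% of all autosomal peaks. Coding promoter peaks had it at 20.5% (19.7 to 21.4), a difference of 21.7 percentage points (18.9 to 24.5). Distal peaks had it at 53.8%, and members were lower by 11.6 points (interval of the difference, members less distal, -14.3 to -8.90). In equal windows 1 kb away the motif was present for 1.53% of members. It was found at the summit alone for 543 members and in the distant window alone for 13 (exact McNemar test, two-sided, log10 p = -141). Without a mismatch the share was 9.90%, and with at most 2 it was 69.1%. The centre of the matched core lay a median of 7 bp from the summit, and within 20 bp for 87.1% of matches. A missing match says only that these letters are not in the window.

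The share with a motif rose with the signal. All autosomal peaks were divided by signal into 5 bins of equal size, from bin 1 (up to 76.2) to bin 5 (from 563). From bin 1 to bin 5, members had a match at 19.7%, 35.6%, 35.7%, 41.9% and 67.3% of summits. Coding promoter peaks had one at 6.41% and 48.6% in bins 1 and 5, and distal peaks at 38.0% and 73.0%. In bin 5 the interval of members (62.0 to 72.26) ended just below that of distal peaks (72.32 to 73.7) and lay above that of coding promoters (46.2 to 51.1).

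**Figure D1:**
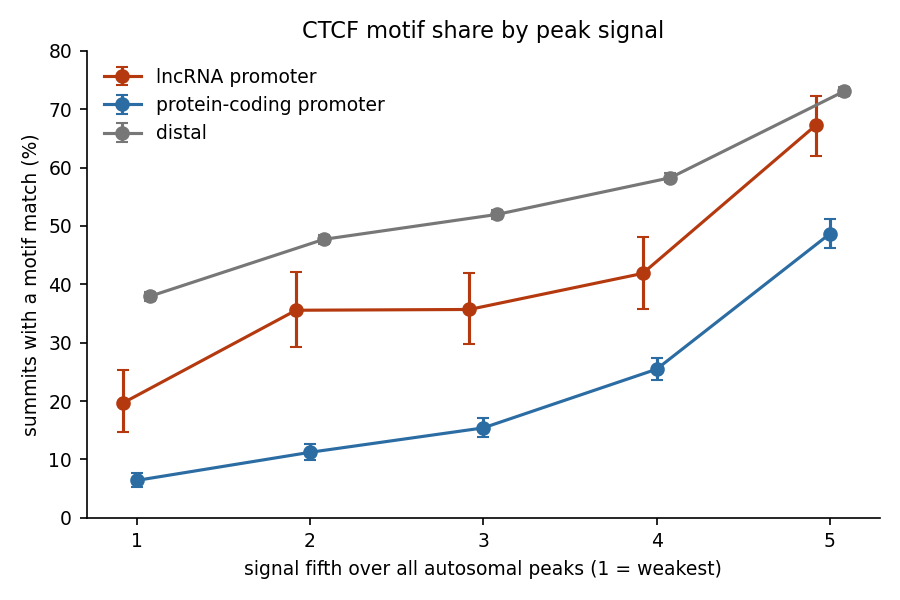
Share of summits with a CTCF motif match (percent, y axis) in 5 equal-sized bins of peak signal over all autosomal peaks (x axis, 1 = weakest) for lncRNA promoter, protein-coding promoter and distal peaks, with 95% exact binomial intervals as bars. The lncRNA promoter peaks rose from 19.7% to 67.3% and lay between the other classes in all 5 bins.

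Where a site had exactly 1 mismatch, the position differed between the classes. Among 421 such members, 41.3% had it at position 5, against 30.4% of 1591 coding promoter sites and 58.0% of 32670 distal sites. At position 3 the shares were 14.0%, 26.8% and 7.28%. The substitution A3G, which 4833412C05Rik and Mir17hg carry in the sequences above, made up 4.99% of single mismatches at members, 14.7% at coding promoters and 1.39% at distal sites. It places CG in the core. These shares are descriptions, without a test.

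Most member summits were not in CpG-rich sequence. A summit was called CpG-rich when the 300 bp around it had over 50% GC and an observed to expected CpG ratio above 0.6. This held for 185 members, 14.2% (12.3 to 16.2), against 7.94% of all autosomal peaks, 57.0% of coding promoter peaks and 1.76% of distal peaks. CpG-rich members had a match at 20.0% of summits (14.5 to 26.5), and the other 1118 members at 45.9% (42.9 to 48.9). Coding promoter peaks differed in the same direction, with 12.6% and 31.0%. Within CpG-rich peaks and within the others, the share was thus lower at coding promoters than at members. Median signal was 245 (190 to 304) at CpG-rich members and 197 (181 to 213) at the rest, with overlapping intervals. CpG-rich distal peaks had 321 (280 to 356), above the members' median, and the other distal peaks had 164 (162 to 166).

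Repeat sequence held fewer members than distal peaks. The summit base was masked as a repeat in the assembly for 242 members, 18.6% (16.5 to 20.8), against 30.3% of all autosomal peaks, 33.2% of distal peaks and 8.53% of coding promoter peaks. Masked members had a match more often, at 66.5% (60.2 to 72.4) against 36.7% (33.8 to 39.6), and had a lower median signal, 137 (116 to 151) against 226 (210 to 276). Distal peaks had 113 (112 to 115) where masked and 238 (233 to 243) where not, so members were not above distal peaks among unmasked summits. In signal bin 5, 6.55% of members had a masked summit base, against 24.0% in bin 1.

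Member summits were more often upstream than downstream of the lncRNA TSS. There were 711 upstream and 589 downstream, 54.7% upstream (51.9 to 57.4; two-sided exact binomial test, p = 0.000785), and 3 at the TSS itself. With lncRNA TSSs within 500 bp the upstream share was 61.6% (exact binomial p = 2.6e-10), and within 2 kb it was 51.7% and did not pass (exact binomial p = 0.104). The median distance to the TSS was 426 bp, against 222 bp for coding promoter peaks from their nearest coding TSS. Within 250 bp lay 33.8% of members and 53.4% of coding promoter peaks. Coding promoter peaks also lay more often upstream near their TSS, with 28.4% in the 200 bp upstream and 18.3% in the 200 bp downstream. The upstream side was therefore not particular to lncRNA promoters.

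The 200 bp just upstream of the TSS held the most and the strongest members. This window was singled out after its values were seen, so its values are a description. It held 246 members, 18.9%, against 124 in the 200 bp downstream. Their median signal was 383 (265 to 511), against 157 (109 to 189) in the 200 bp downstream and 194 (173 to 211) elsewhere. The upstream window held 60 of the members among the strongest 10% of all peaks, 24.4% of its members, against 9 (7.26%) downstream. In replicate 1 the medians were 207 upstream, 78.8 downstream and 96.6 elsewhere, and in replicate 2 they were 214, 81.4 and 104. The lists called on each replicate alone share reads with the main list, so they are not independent of it. They also had a higher median in the upstream window than at all other members together. In the list of replicate 1 the median was 248 (170 to 278) in the upstream window and 111 (101 to 127) at other members, and in that of replicate 2 it was 250.04 (157 to 282) and 109 (101 to 119).

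Coding promoter peaks lay in this window more often than members, at 28.4% against 18.9%. Their signals there were higher than at their own other positions, but below the upstream median of 383 for members. The median of coding promoter peaks was 219 (203 to 236) in the 200 bp upstream, 120 (113 to 127) downstream and 153 elsewhere. The upstream intervals of members and coding peaks did not overlap, and the downstream ones did. Among members, lincRNA promoters had 316 upstream and 201 elsewhere, and processed_transcript promoters 518 and 187. Antisense promoters had 185 (155 to 519) upstream and 188 elsewhere. Members with a motif in the upstream window had a median of 582 (485 to 693), against 345 (289 to 458) for those elsewhere. Without a motif the medians were 228 (162 to 299) and 150 (133 to 168). Coding promoter peaks with a motif had 641 (604 to 668) upstream and 338 (299 to 376) elsewhere, and those without had 172 and 127. CpG-rich members had nearly the same median upstream, 276 (162 to 529), as elsewhere, 267 (189 to 344). Members outside CpG-rich sequence had 473 (274 to 545) and 191 (166 to 206). CpG-rich coding promoter peaks had 208 (194 to 225) upstream and 142 (134 to 152) elsewhere.

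**Figure D2:**
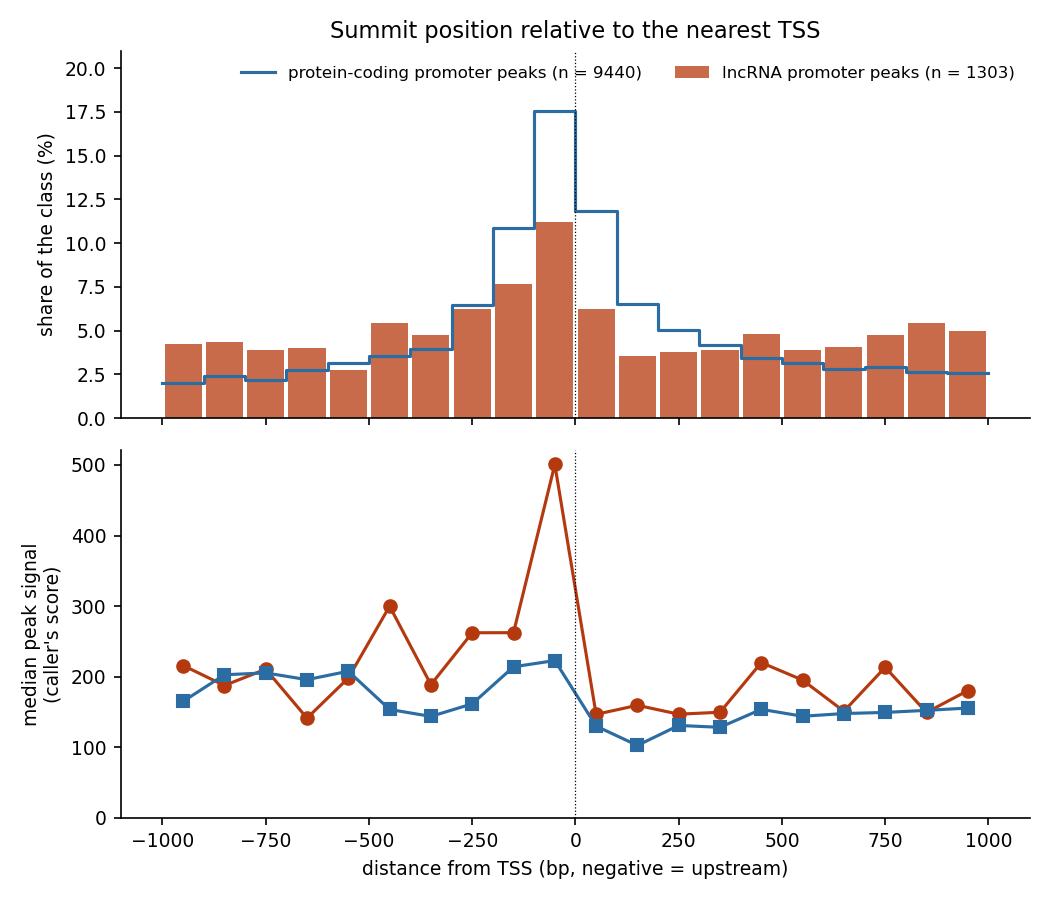
Share of each class (percent, upper panel) and median peak signal (caller's score, lower panel) by distance of the summit from the nearest TSS in bins of 100 bp (x axis, negative upstream), for 1303 lncRNA promoter peaks (red) and 9440 protein-coding promoter peaks (blue, nearest coding TSS). The bin just upstream of the TSS held 146 lncRNA promoter peaks, 11.2%, with a median signal of 501.

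The strand of the motif was not called as different from equal. Of 536 members with matches on 1 strand only, 290 (54.1%, 49.8 to 58.4) had the motif on the strand of the lncRNA (two-sided exact binomial test, p = 0.0632). With TSSs within 500 bp it was 60.6% (exact binomial p = 0.00038), and the other alternatives in which it passed were members over 5 kb from coding TSSs, all annotated transcripts and up to 2 mismatches. Upstream members had 176 motifs on the lncRNA strand, with a median signal of 532, and 140 on the other strand, with 326. Downstream members had 113 with 345 and 106 with 418. These medians were not tested.

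Inside protein-coding genes lay 435 of the 1303 members (33.4%), and of these 377 were nearest to a lncRNA antisense to that gene and 58 to one along it. Inside coding genes the median signal was 181 and outside it was 213. In an exon of a lncRNA lay 276 summits (21.2%) and in an exon of a coding gene 79. Over 100 kb from any coding TSS lay 227 members (17.4%), with a median signal of 212 and a match at 42.3%. For 1004 members (77.1%) the neighbouring summit lay under 10 kb away, against 70.3% of all autosomal peaks. The share was 81.3% for coding promoter peaks and 68.8% for distal peaks.

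Named lncRNA genes were grouped into 5 lists: imprinted loci, neural lncRNAs, broadly expressed lncRNAs with the hosts of small nucleolar RNAs, Hox cluster lncRNAs and microRNA hosts. Of 83 listed genes, 70 matched an autosomal lncRNA gene, by symbol or by a RefSeq synonym. A member summit lay at 22 of the 70 (31.4%), against 12.5% of all autosomal lncRNA genes. Another 8 had only summits that were shared with a coding TSS, and 40 had none. The 22 genes had 33 member peaks, of which 4 had a motif match, 14 came within 2 mismatches, 13 were CpG-rich and 11 lay in the 200 bp upstream of the TSS. Among all members 42.2% had a match. No test was made on the lists, which were chosen with earlier results of these data known. The number of TSSs per gene was not made equal between listed and all lncRNA genes.

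Broadly expressed and snoRNA host genes had a member summit at 12 of 24, and 6 more were shared with coding promoters. Epb41l4aos (915, above) was the strongest. Snhg16, annotated as 1810032O08Rik, had peaks of 770 (378 in replicate 1 and 394 in replicate 2) and 491 (378 and 250.04) near 1 TSS, within 1 peak whose replicate 1 signal is shared. Snhg15 had 739 (369 and 373) at -154 bp and Snhg17 had 732 (364 and 367) at -28 bp. The highest peak of each of these 4 genes fell in signal bin 5, and none of their peaks had a match with at most 1 mismatch. Snhg5 (267), Snhg8 (239), Neat1 (212), Snhg12 (107), Norad (95.4), Dleu2 (90.7), Snhg3 (84.4) and Oip5os1 (68.2) had weaker peaks. They were named after their values were seen. Neat1, the scaffold of nuclear paraspeckles, had its summit at -205 bp, and the nearest lncRNA TSS to it was that of Frmd8os. Dancr and Gas5 had no summit within 1 kb, and their nearest lay at 3631 and 3572 bp.

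MicroRNA host genes had a member summit at 6 of 14. Mir100hg, annotated as 3110039I08Rik, had peaks of 845 (426 in replicate 1 and 424 in replicate 2) at -28 bp from one TSS and 526 (251 and 278) at -146 bp from another. Mir17hg had 599.7 (302 and 300.3) at -605 bp. Mirlet7bhg, annotated as Lncppara, had 162 and Mir670hg had 154. The replicates gave nearly the same signal at Mir100hg and Mir17hg. Mir124-2hg and Mir124a-1hg, hosts of the neuronal microRNA miR-124, had none, with the nearest summits at 2858 and 6976 bp.

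Imprinted lncRNAs had a member summit at 3 of 9. Peg13, inside Trappc9, had its summit at -5 bp from the TSS with a signal of 511 (233 in replicate 1 and 279 in replicate 2) and no match within 50 bp. Rian, in the Dlk1-Dio3 imprinted domain, had 202 (105 and 95.5). Airn, antisense to Igf2r, had 71.0 (37.1 and 32.4) at -16 bp, and this peak was in neither single-replicate list. H19 and Kcnq1ot1 had none within 1 kb. The nearest summit to H19 lay at 1110 bp with a signal of 145, just outside the rule, and that to Kcnq1ot1 at 33107 bp. With reads of both parental chromosomes in 1 peak, no allele could be told apart.

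Neural lncRNAs had a member summit at 1 of 14, Emx2os, antisense to the cortical transcription factor gene Emx2, with 117 (70.1 and 47.5). Its summit was 1002 bp from the Emx2 TSS, at the edge of the rule. Pantr1 and Lhx1os had only summits shared with the coding genes Pou3f3 and Lhx1, and were named after their values were seen. Dlx1as and Dlx6os1 had none, with the nearest summits at 8278 and 13537 bp. The listed Hox cluster lncRNAs had a summit at 0 of 9, among them Haglr and Hotair with the nearest at 34350 and 15112 bp. Other lncRNAs at Hox genes, not on the list and named after their values were seen, were members. Hoxd3os1, antisense to Hoxd3, had peaks of 707 (339 in replicate 1 and 369 in replicate 2) at 68 bp and 68.4 at -26 bp. Gm53, whose nearest coding TSS was that of Hoxb9 at 9687 bp, had 368 (170.1 and 197) at 160 bp. Over the 40 unoccupied listed genes the nearest summit lay at a median of 5824 bp, within 2 kb for 7 and over 10 kb for 17.

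**Figure D3:**
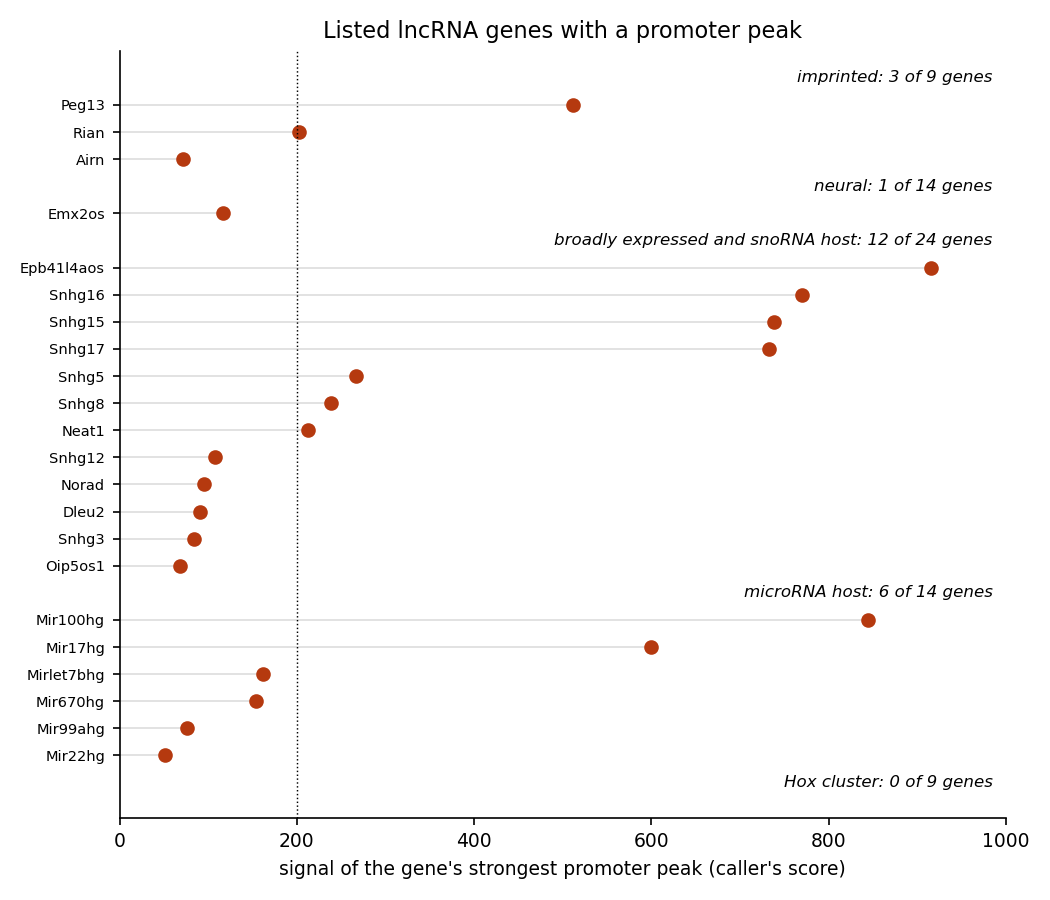
Signal of the strongest promoter peak (x axis, caller's score) of each of the 22 listed lncRNA genes with a member summit, by list, with the number of occupied genes of those matched; the dotted line is the median of all members. Epb41l4aos, Mir100hg, Snhg16, Snhg15 and Snhg17 lay above 700, and none of the 9 genes of the Hox list had a peak (Hoxd3os1, with 707, is not on it).

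The replicates gave like signals at strong members and unlike ones at weak members. The log2 ratio of replicate 2 to replicate 1, less the median over all autosomal peaks, had a median of -0.0042 with an SD of 0.49 over the members. The SD was 1.01 in signal bin 1 and 0.077 in bin 5. It was 0.43 for coding promoter peaks and 0.41 for distal peaks. The replicate values are those of the replicate's peak that the deposited list assigns to each pooled peak, and for 40 members (3.07%) at least 1 of these had its summit over 100 bp from the pooled one. The other 1263 members had an SD of 0.27. The SDs of the bins include the 40 members, whose median signal was 26.7. The contrast between bins may be smaller without them, which was not computed.

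All 6 members at the extremes of the ratio were among those 40, with replicate summits up to 197 to 223 bp away. The largest ratios were at Gm12602, 4.26 (14.8 in replicate 1 and 304 in replicate 2), Rapgef4os1, 3.70 (29.9 and 413), and a second peak of Peg13 at 903 bp, 3.10 (31.6 and 289). The smallest were at Gm38563, -5.55 (361 and 8.23), Gm47128, -4.38 (369 and 18.9), and Gm12002, -3.72 (335 and 27.0). Their pooled signals ran from 15.9 to 69.3, below the larger of the replicate values in each case. At Gm12602, Rapgef4os1, Gm38563, Gm47128 and Gm12002 the larger replicate value was also that of a stronger summit in the same peak. Those stronger summits had pooled signals of 579, 788, 749, 742 and 688. The ratios of these genes therefore do not compare the same summit in both replicates. The 5 weakest members were Gm26802 (13.5), Gm43625 (15.6), Gm47128 (15.9), Gm38102 (16.1) and 1700030M09Rik (17.5). In all 5 a replicate summit also lay over 100 bp away. The replicate 1 value of Gm26802, 396, was likewise shared with a summit of signal 804 in the same peak. For Gm43625, Gm38102 and 1700030M09Rik the replicate values may belong to a neighbouring summit, which was not tested.

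**Figure D4:**
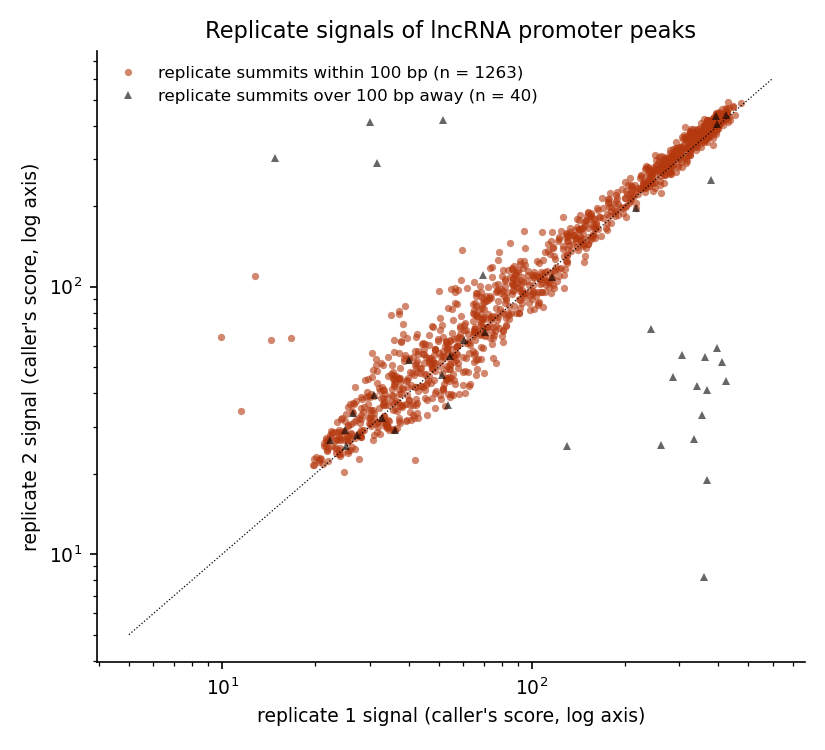
Signal of each of the 1303 lncRNA promoter peaks in replicate 1 (x axis) and replicate 2 (y axis), both on log axes in the caller's score, with the line of equal values dotted. The points follow the line most closely at high signals, and those far from it are largely among the 40 peaks (black triangles) whose replicate summits lay over 100 bp away.

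Members recurred in the lists called on single replicates. A peak of the replicate 1 list overlapped 1099 members by at least 1 bp, 84.3% (82.3 to 86.3), against 81.1% of all autosomal peaks. The replicate 2 list overlapped 1096, 84.1% (82.0 to 86.1), against 81.2%. Both lists held 1028 members, with a median signal of 310, and neither held 136, with 56.3. In signal bin 1, 31.0% of members were in the replicate 1 list, and in bins 3 to 5 at least 99.2% were. These lists share reads with the main one, so the overlaps are not independent.

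The list called on pooled reads held 1039 members, 79.7% (77.5 to 81.9), against 77.6% of all autosomal peaks. It left out weak members and also some of the strongest. Of the 22 members in the strongest 1% of all autosomal peaks (above 852), the pooled-read list overlapped 10 and each single-replicate list 21. Over all autosomal peaks of that strength it overlapped 31.8%. Of the 10 strongest members, Gm16133, Gm12052 and 4930478P22Rik were in it and the other 7 were not. Gm26841 was also missing from the replicate 1 list and Gm12052 from the replicate 2 list.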

How the data were processed

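Peak lists deposited by the authors were used: the between-replicate list at an irreproducible discovery rate (IDR) of 0.05 as the main list, its ranked list for replicate signals, and the pooled-read and single-replicate lists. Per the labels, the build is mm10; for the aligner and the peak caller, names were not given in the sources used here. Peak signal and IDR score are scores deposited by the authors, and the IDR is deposited as −log10. The replicate columns were identified by coordinates and signal: 78.1% and 80.0% of their peaks were in the ranked list of their own replicate and 0 in that of the other.

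Coordinates are 1-based. Chromosome lengths of GRCm38 were compared with the peaks, and start sites were those of GENCODE M21 (basic set). Motifs were searched in the RefSeq GRCm38.p6 sequence. Intervals are 95% exact (Clopper-Pearson), Newcombe for differences, and order-statistic for medians. Exact binomial and McNemar tests take peaks as independent, which neighbouring summits may not be. The code was tested on simulated data (scipy 1.17.1, pysam 0.24.0, pandas 2.3.3, numpy 2.4.6 and matplotlib 3.10.9 in Python 3.11.15).

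The members and gene lists were chosen with earlier results of these data known. Named were the 10 strongest and 5 weakest members, the 3 largest and 3 smallest replicate ratios, the 3 genes with most summits, and up to 4 strongest and 2 unoccupied genes of each list, first by alphabet. Of the 83 listed genes, 11 matched no autosomal gene and 2 had another gene type. No sequence is printed for chromosome 18. Alternatives were an IDR of 0.01, the other lists, other TSS limits, all transcripts, overlapping peaks reduced to the strongest, other motif limits and windows, other overlap rules and uncentred ratios.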

Additional observations from a re-analysis of the deposited data

How the results depend on the processing

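Of 118 values recomputed under alternatives, 69 counted as the same, 44 moved, 4 gained a call and 1 lost it. The same meant an unchanged direction and call for a test, and a value within the main interval for a share or median. For the member count it meant within a set factor of the main count, and for the replicate ratio within its SD. No tested result reversed its direction, and the other results could not be labelled as reversed. The member count was 750 with TSSs within 500 bp and 2367 within 2 kb, and 1141 to 1198 when either replicate was left out by using the other's list. The occupied share of lncRNA genes was 11.4% at an IDR of 0.01, 10.3% in the pooled-read list, 7.57% within 500 bp, 21.3% within 2 kb, 9.78% over 5 kb from coding TSSs, and 10.97% to 11.01% without either replicate. The median signal of members was 239 at an IDR of 0.01 and 185 within 2 kb, and it was above both other classes in all 6 alternatives. The motif share at members was 45.3% in the pooled-read list, 39.2% within 500 bp, 45.7% within 2 kb, 9.90% without mismatches, 69.1% with up to 2, 36.6% within 25 bp of the summit, and 42.6% to 45.0% without either replicate. It lay between coding and distal peaks in all 13 alternatives. The excess of motifs over the distant window passed in all 14 alternatives, and was 41.4 to 43.7 percentage points without either replicate. The share of motifs on the lncRNA strand passed the exact binomial test at 60.6% within 500 bp, 55.5% over 5 kb from coding TSSs, 54.6% with all transcripts and 53.9% with up to 2 mismatches. It did not pass in the other 9 alternatives, among them those without either replicate (53.1% to 53.4%). The upstream share no longer passed within 2 kb (51.7%), and was 54.4% to 55.0% without either replicate. Overlap of members fell to 75.4% and 77.5% in the replicate 1 and 2 lists where 50% of both peaks had to overlap, and to 81.3% and 81.8% for summits within 100 bp. The causes of these changes were not tested. No paired analysis was possible because both technical libraries were merged into 1 alignment per replicate, which leaves no value for a library. Unknown read depth limits weak members most.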
